A study of Mus musculus with 16 samples.

Results

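The 10 genes described here are *Cpa3*, *Mcpt8*, *Prss34*, *Fcer1a*, *Hdc*, *Cma1*, *Prg2*, *Prg3*, *Epx* and *Il5ra*, chosen by symbol from the 54347 genes of the count table because they mark mast cells, basophils or eosinophils. All 10 were found, each as a single protein-coding gene. RNA was sequenced from 2 sorted bone marrow compartments. LSKs (lineage-negative and positive for Sca-1 and c-Kit) hold the stem cells and multipotent progenitors, and GMPs (lineage-negative, Sca-1-negative and positive for c-Kit and Cd16/32) are the granulocyte-monocyte progenitors. The donors were UREΔ mice, which lack the upstream regulatory element, an enhancer of the PU.1 gene *Spi1*, and their WT littermates. All mice had a C57BL/6 background, were 8 to 12 weeks old, were untreated as far as the labels say, and the UREΔ mice had not yet developed leukemia. Each of the 4 groups (WT LSK, UREΔ LSK, WT GMP and UREΔ GMP) held 4 libraries, and each library came from sorted cells that had been enriched for c-Kit with beads. The deletion is present in every cell of the animal, so the cells that produced these LSKs and GMPs carried it too.

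Mast cells, basophils and eosinophils are granulocytes whose granules hold proteases, histamine and cationic proteins, and they arise in part from the same progenitors as neutrophils and monocytes. Mast cells and basophils bind immunoglobulin E through the receptor FcεRI, whereas eosinophils depend on the interleukin-5 receptor. GATA factors and C/EBP factors act in these lineages, and PU.1 is known to work beside GATA2 in mast cells. The comparisons below address how these lineage genes stood when PU.1 was lowered, first in LSKs and then in GMPs. In bulk RNA, fewer cells of a type and less RNA per cell cannot be told apart.

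Promoters are shown first for 6 of the genes the results below turn on. *Cpa3* was higher in UREΔ LSKs, *Mcpt8* was higher in both UREΔ cell types, and *Prss34*, *Prg3*, *Epx* and *Il5ra* were lower in UREΔ GMPs. Each sequence is the 250 bases before the RefSeq gene start, 5′ to 3′ on the strand of the gene, from RefSeq on GRCm38.p6. Capitals mark a GATA motif (AGATAA, or the same letters with T first, with G last, or with both changes) or a PU box (GAGGAA, the core of PU.1 sites), each searched on both strands.
*Cpa3* (chr3:20242182-20242431, minus strand): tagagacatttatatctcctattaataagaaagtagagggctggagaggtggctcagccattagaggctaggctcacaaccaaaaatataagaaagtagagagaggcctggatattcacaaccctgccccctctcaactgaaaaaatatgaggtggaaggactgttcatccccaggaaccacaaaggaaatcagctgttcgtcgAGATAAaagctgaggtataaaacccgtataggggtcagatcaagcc
*Mcpt8* (chr14:56085198-56085447, minus strand): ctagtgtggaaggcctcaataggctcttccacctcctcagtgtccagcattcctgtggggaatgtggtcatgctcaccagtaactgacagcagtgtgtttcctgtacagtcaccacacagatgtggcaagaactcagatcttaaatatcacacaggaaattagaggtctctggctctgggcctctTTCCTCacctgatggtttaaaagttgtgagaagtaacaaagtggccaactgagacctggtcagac
*Prss34* (chr17:25298144-25298393, plus strand): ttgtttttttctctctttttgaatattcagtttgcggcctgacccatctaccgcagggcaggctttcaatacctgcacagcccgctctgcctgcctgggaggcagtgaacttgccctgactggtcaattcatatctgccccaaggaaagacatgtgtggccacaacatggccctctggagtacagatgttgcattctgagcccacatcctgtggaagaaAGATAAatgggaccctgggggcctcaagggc
*Prg3* (chr2:84987965-84988214, plus strand): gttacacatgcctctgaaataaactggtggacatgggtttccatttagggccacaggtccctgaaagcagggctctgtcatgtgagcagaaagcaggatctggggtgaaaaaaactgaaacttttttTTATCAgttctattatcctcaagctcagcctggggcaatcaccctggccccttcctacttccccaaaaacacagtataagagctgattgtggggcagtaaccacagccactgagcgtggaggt
*Epx* (chr11:87875537-87875786, minus strand): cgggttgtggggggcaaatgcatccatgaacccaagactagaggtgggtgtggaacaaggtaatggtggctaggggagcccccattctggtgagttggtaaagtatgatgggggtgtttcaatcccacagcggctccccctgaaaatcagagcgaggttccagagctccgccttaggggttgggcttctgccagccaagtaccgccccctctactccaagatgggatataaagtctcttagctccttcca
*Il5ra* (chr6:106749038-106749287, minus strand): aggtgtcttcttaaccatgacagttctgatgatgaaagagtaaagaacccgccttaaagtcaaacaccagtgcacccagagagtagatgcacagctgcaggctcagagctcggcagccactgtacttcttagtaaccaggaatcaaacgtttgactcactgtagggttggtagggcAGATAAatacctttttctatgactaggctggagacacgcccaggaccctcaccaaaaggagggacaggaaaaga

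RefSeq promoters were matched for 9 of the 10 genes, all but *Prg2*. A GATA motif stood in 7 of these 9, in *Cpa3* (starting at -46 from the gene start), *Prss34* (-31), *Fcer1a* (-92), *Hdc* (-221), *Cma1* (-79), *Prg3* (-123) and *Il5ra* (-74). The same motif was found in 26.5% of 32851 RefSeq promoters of equal length. The PU box stood in 2 of the 9, *Mcpt8* (-65) and *Fcer1a* (-216), against 23.3% of all promoters. The C/EBP motif TTGCNNAA stood in *Fcer1a* alone (-118), against 9.56% of all promoters. The GATA motif was present in promoters of genes that rose (*Cpa3*) as well as of genes that fell (*Prss34*, *Prg3*, *Il5ra*), and no motif of either kind was found in the *Epx* window. RefSeq starts were not always those of the GENCODE annotation, which gives the gene spans below. The *Hdc* window and the *Mcpt8* PU box lay inside those spans, and the *Fcer1a* start matched no GENCODE transcript start.

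On GRCm38, the genes lie on several chromosomes. *Cpa3* spans 20215620 to 20242181 on chromosome 3, *Mcpt8* 56082166 to 56085273 and *Cma1* 55941451 to 55944675 on chromosome 14, where both belong to the mast cell protease cluster, and *Prss34* 25298394 to 25300165 on chromosome 17. *Prg2* (84980461 to 84983632) and *Prg3* (84988215 to 84993886) are neighbors on chromosome 2, 6.10 and 6.09 Mb from *Spi1*, and *Hdc* (126593667 to 126619299) lies 35.5 Mb from *Spi1* on the same chromosome. *Fcer1a* spans 173221284 to 173227214 on chromosome 1, *Epx* 87864000 to 87875536 on chromosome 11 and *Il5ra* 106710357 to 106749037 on chromosome 6. No exon of the 10 genes overlapped an exon of another gene. Sequence stretches of 31 bases shared with other genes made up 10.6% of *Cma1* (shared with the gene model *Gm48934*, at 0 counts in every library) and 4.40% of *Il5ra*, and none of the other 8.

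Library totals lay between 20028302 and 29128858 counts. *Spi1* was 125 ± 40.0 CPM (counts scaled to library size, mean ± SD, n = 4 here and throughout) in WT LSKs and 3.05 ± 1.41 in UREΔ LSKs, and 139 ± 38.1 in WT GMPs against 20.8 ± 5.59 in UREΔ GMPs, with no overlap between genotypes. All 6 stem cell markers were lower in GMPs than in LSKs of either genotype, whereas 4 of 9 neutrophil granule genes were higher in WT GMPs and 5 of 9 in UREΔ GMPs. These are calls as defined below. Of all genes tested, 15.8% were called lower and 11.5% higher in WT GMPs. In UREΔ GMPs the shares were 12.6% lower and 9.2% higher. Y-linked RNA was present (219 to 356 CPM) in both libraries of WT replicates 1, 2 and 3 and UREΔ replicate 1, and at most 0.368 CPM in the others, so the sexes were unevenly spread over the genotypes. Libraries of replicates 1 and 4 stood apart from those of replicates 2 and 3 in all 4 groups, on a component that held 41.3% of the variance around the group means. For the 10 genes, values that change with these points are given beside the results, and the other genes named were not refitted.

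In WT bone marrow, 9 of the 10 genes rose from LSKs to GMPs, all but *Cma1*, where 27.3% of the 14767 genes tested were called in either direction and 11.5% were called higher. A call required an adjusted p below 0.05 and more than a 1.5-fold change, using the quasi-likelihood test of edgeR and Benjamini-Hochberg adjustment over all genes tested. The libraries of 9 of the 10 genes did not overlap, compared with 31.3% of all genes tested. Of the 9, *Epx*, *Prg3* and *Fcer1a* reached the filter's minimum (10 counts in a library of median size) in at most 1 WT LSK library and were tested only because they were high in GMPs, so these counts are a description. The eosinophil granule genes had the widest steps. *Prg2*, which encodes the major basic protein of eosinophil granules, stood at 5.80, 1.98, 1.23 and 2.88 CPM in the WT LSK libraries (replicates 1 to 4) and at 402, 1030, 613 and 550 CPM in the WT GMP libraries. It was 7.76 ± 0.59 (SE) higher on the log2 scale. *Epx*, eosinophil peroxidase, had 8, 0, 0 and 8 counts in the WT LSKs and 143, 152, 29.1 and 221 CPM in the WT GMPs. *Hdc*, the enzyme that makes histamine, went from 4.30 to 6.19 CPM across WT LSKs to 219 to 507 CPM across WT GMPs, a log2 difference of 6.27 ± 0.33.

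The mast cell and basophil proteases rose as well. *Cpa3*, carboxypeptidase A3 of mast cell and basophil granules, was 4.61 ± 0.50 higher in WT GMPs, *Mcpt8*, a basophil protease, 4.54 ± 0.39, and *Prss34*, a basophil and mast cell tryptase, 4.99 ± 0.65 (all log2). *Fcer1a*, the IgE-binding chain of FcεRI, rose by 3.91 ± 0.52 to a level of only 2.11 to 7.40 CPM. *Il5ra*, the interleukin-5 binding chain, rose by 2.04 ± 0.50 (adjusted p = 0.0147, edgeR) and its call was lost in a joint fit of all 16 libraries (adjusted p = 0.0700). *Cma1*, a chymase of connective tissue mast cells, was at 0 to 1.41 CPM in WT LSKs and 0.386 to 1.06 CPM in WT GMPs (log2 difference -0.59, adjusted p = 0.672). The median log2 difference was 4.80 over the 10 genes and -0.09 over all genes tested.

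**Figure D1:**
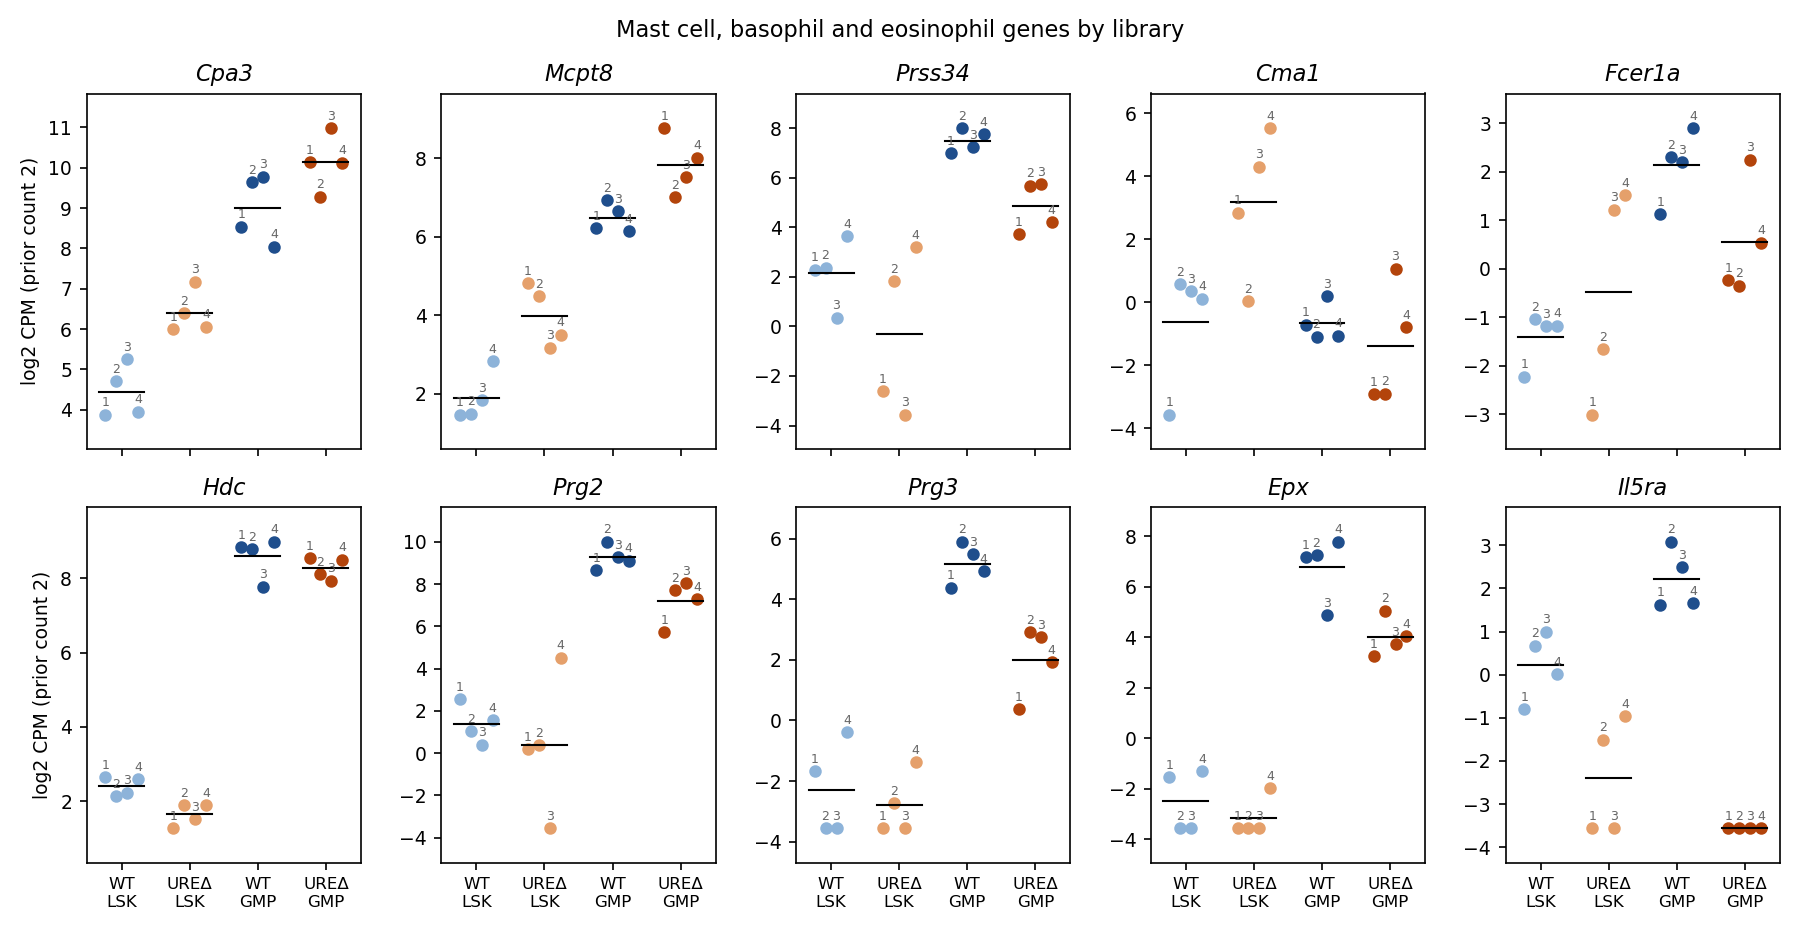
Level of each gene in each library, as log2 CPM with a prior count of 2 (vertical axes differ between panels), for WT LSKs, UREΔ LSKs, WT GMPs and UREΔ GMPs. Points are libraries with their replicate number, and bars are group means. *Mcpt8* is higher in UREΔ cells of both compartments, *Prg3* and *Prss34* drop from WT to UREΔ GMPs, and *Il5ra* lies on the floor of the scale in all 4 UREΔ GMP libraries.

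In LSKs, *Cpa3* and *Mcpt8* were higher in the UREΔ cells, and none of the other 8 genes was called by edgeR. *Cpa3* was at 14.6, 26.1, 38.2 and 15.4 CPM in the WT LSK libraries and at 64.1, 83.8, 144 and 66.6 CPM in the UREΔ LSK libraries. Every UREΔ library was above every WT library, and *Cpa3* rose by 1.89 ± 0.40 on the log2 scale (3.72-fold, adjusted p = 0.0212, edgeR). *Mcpt8* was at 2.67, 2.72, 3.46 and 6.97 CPM in WT LSKs and at 27.9, 22.3, 8.92 and 11.2 CPM in UREΔ LSKs. The groups again did not overlap, and *Mcpt8* rose by 2.11 ± 0.46 (4.32-fold, adjusted p = 0.0262, edgeR). These were 2 calls, both higher, among the 7 of the 10 genes that passed the filter on low counts, where 6.14% of the 15154 genes tested were called, 2.38% of them higher and 3.76% lower. The exact two-sided permutation test gave p = 0.0286 for both genes, the smallest that 4 against 4 libraries allow.

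In this unpaired fit both calls sat close to the threshold. With the replicate number as a block, *Cpa3* had an adjusted p of 0.000284 (log2 difference 1.92) and *Mcpt8* of 0.0324 (2.08, edgeR). When the level of Y-linked RNA was added as a covariate, *Cpa3* (log2 difference 2.0) had an adjusted p of 0.118 and *Mcpt8* (2.08) of 0.0691 (edgeR). Leaving out WT replicate 1, 2 or 4 took *Cpa3* to adjusted p values of 0.0550, 0.0649 and 0.0664, with log2 differences of 1.72, 1.96 and 1.73. *Mcpt8* was no longer called without UREΔ replicate 1 or 2 or without WT replicate 1, 2 or 3 (log2 differences 1.81 to 2.07, adjusted p 0.0626 to 0.0843). In replicates 1 and 4 alone *Mcpt8* differed by 1.96 (adjusted p = 0.121) and in replicates 2 and 3 alone by 2.32 (adjusted p = 0.0620), while *Cpa3* was called in both.

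*Cma1* was absent or near 1 CPM in the WT LSKs (0, 1.41, 1.19 and 1.0 CPM) and stood at 7.10, 0.937, 19.7 and 46.3 CPM in the UREΔ LSKs. UREΔ replicate 2 lay within the WT range, so the groups overlapped. The filter's minimum was reached in all 4 UREΔ and 3 of the 4 WT libraries. Its log2 difference of 4.32 ± 1.23 missed the threshold (adjusted p = 0.0810, edgeR). Over 17 alternatives the adjusted p ran from 0.0228 to 0.392 and was below 0.05 in 4 of them, which is given as a measure of its instability and not as a call.

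The other genes gave no call in LSKs. *Il5ra* was at 15, 45, 48 and 23 counts in the WT LSKs and at 0, 8, 0 and 10 in the UREΔ LSKs, without overlap, with a log2 difference of -2.80 ± 1.0 (adjusted p = 0.180, edgeR; 0.0447 with DESeq2). *Hdc* did not overlap either, at 4.30 to 6.19 CPM in WT and 2.33 to 3.64 CPM in UREΔ LSKs (log2 difference -0.80 ± 0.29, adjusted p = 0.196, edgeR). With *Cpa3* and *Mcpt8* these made 4 of the 7 tested genes with no overlap, where 12.6% of all genes tested had none. *Il5ra* reached the filter's minimum in all 4 WT but in only 1 UREΔ LSK library. It was thus tested because WT was high, so this count is a description. *Prss34* scattered from 1.19 to 12.3 CPM in WT and from 0 to 9.04 CPM in UREΔ LSKs (log2 difference -0.94 ± 1.28). *Prg2* depended on a single library. It was at 1.04, 1.20, 0 and 22.7 CPM in the UREΔ LSKs, the log2 difference was 1.01 ± 1.31 with UREΔ replicate 4 and -2.02 without it, and neither passed the test. *Fcer1a*, *Prg3* and *Epx* were below the filter. *Fcer1a* had 4 to 12 counts in the WT libraries and 1, 7, 54 and 65 counts in the UREΔ libraries, *Prg3* had 7, 0, 0 and 17 counts in WT and 0, 2, 0 and 7 in UREΔ, and *Epx* had 4 counts in UREΔ replicate 4 and 0 in the other UREΔ LSKs. Over the 7 tested genes the median log2 difference was 1.01, and over all genes tested 0.00. This median was the value of *Prg2* itself, whose sign turned on UREΔ replicate 4, so it gives no stable direction for the set.

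In GMPs the genotypes differed in both directions. The eosinophil genes and *Prss34* were lower in UREΔ GMPs, and *Mcpt8* was higher. Of the 9 genes tested, 5 fell and 1 rose, where 8.3% of the 13829 genes tested were called, 3.63% lower and 4.67% higher. Of the 5 that fell, *Il5ra* was tested through its WT libraries alone, and the other 4 reached the filter's minimum in all 8 libraries. No overlap between the genotypes was seen for 5 of the 9 (14.9% of all genes tested). The median log2 difference was -1.89 over the 9 and 0.01 over all genes tested.

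*Il5ra* showed the widest gap. The WT GMP libraries held 68, 196, 114 and 62 counts (2.99 to 8.41 CPM), whereas all 4 UREΔ GMP libraries held 0. A count of 0 allows up to 3 counts, or 0.144 to 0.164 CPM in these libraries. Against the mean of these limits, *Il5ra* was at least 32.8-fold lower in UREΔ GMPs than the mean of the WT GMPs. The gene passed the filter through the WT libraries alone, so its call (adjusted p = 0.00200, edgeR) is a description. The UREΔ LSK libraries of replicates 2 and 4 did hold *Il5ra* counts, 8 and 10.

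The eosinophil granule genes fell together. *Prg3*, a homolog of *Prg2*, was at 20.8, 60.1, 44.9 and 30.4 CPM in the WT GMPs and at 1.20, 7.43, 6.63 and 3.73 CPM in the UREΔ GMPs. Each WT library was above each UREΔ library, and *Prg3* fell by 3.01 on the log2 scale (SE 0.56, 8.05-fold, adjusted p = 0.0103, edgeR). *Epx* was at 143, 152, 29.1 and 221 CPM in the WT GMPs and at 9.44, 33.3, 13.1 and 16.5 CPM in the UREΔ GMPs. WT replicate 3 lay below UREΔ replicate 2, so that the groups overlapped (exact permutation p = 0.0571), yet *Epx* fell by 2.89 (SE 0.60, adjusted p = 0.0170, edgeR). *Prg2* was at 402, 1030, 613 and 550 CPM in the WT GMPs and at 52.7, 211, 263 and 156 CPM in the UREΔ GMPs, without overlap, and fell by 1.89 (SE 0.47, 3.71-fold, adjusted p = 0.0377, edgeR). UREΔ replicate 1 was the lowest mutant library for all 3 genes.

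The *Prg3* call held under every alternative fitted, and the other 2 did not. *Epx* was lost without UREΔ replicate 1 (log2 difference -2.67, adjusted p = 0.0501) or UREΔ replicate 4 (-2.85, 0.0632) and in replicates 2 and 3 alone (-1.90, 0.383; edgeR throughout). *Prg2* was lost with the Y-linked covariate (-2.48, 0.0729), in the joint fit (-1.89, 0.316), in replicates 2 and 3 alone (-1.74, 0.0671) and without UREΔ replicate 2 or 4 or WT replicate 2, 3 or 4 (-2.02 to -1.62, adjusted p 0.0673 to 0.111).

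The proteases parted in GMPs. *Prss34* was at 126, 258, 151 and 215 CPM in the WT GMPs and at 13.1, 51.3, 53.6 and 18.5 CPM in the UREΔ GMPs, with every mutant library below every WT library. It fell by 2.42 (SE 0.48, 5.37-fold, adjusted p = 0.0140, edgeR), a call lost in the joint fit (adjusted p = 0.176). *Mcpt8* went the other way, from 74.7, 122, 101 and 70.8 CPM in the WT GMPs to 439, 129, 184 and 259 CPM in the UREΔ GMPs. The groups did not overlap, although WT replicate 2 and UREΔ replicate 2 were close, and *Mcpt8* rose by 1.48 ± 0.36 (2.78-fold, adjusted p = 0.0354, edgeR). Its call was lost on leaving out any library but UREΔ replicates 2 and 3 (log2 differences 1.09 to 1.61, adjusted p 0.0569 to 0.107), and in replicates 2 and 3 alone it differed by 0.53 (adjusted p = 0.484). *Cpa3* was at 372, 797, 881 and 264 CPM in the WT GMPs and at 1123, 624, 2031 and 1116 CPM in the UREΔ GMPs. UREΔ replicate 2 lay within the WT range, and the log2 difference of 1.11 ± 0.46 missed the threshold (adjusted p = 0.209, edgeR), while in replicates 1 and 4 alone it was 1.81 (adjusted p = 0.00432).

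The remaining genes overlapped between the genotypes in GMPs. *Hdc* was at 219 to 507 CPM in WT and 244 to 372 CPM in UREΔ GMPs, with a log2 difference of -0.35 ± 0.26 (95% interval -0.85 to 0.15, adjusted p = 0.529, edgeR). *Fcer1a* was at 2.11, 4.85, 4.50 and 7.40 CPM in WT and at 0.770, 0.703, 4.67 and 1.37 CPM in UREΔ GMPs. Its log2 difference was -1.29 ± 0.66 (adjusted p = 0.326, edgeR), and without UREΔ replicate 3 it was -2.33 (adjusted p = 0.0277). *Cma1* was below the filter, with 8 to 22 counts in WT and 1, 1, 40 and 9 counts in UREΔ GMPs.

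**Figure D2:**
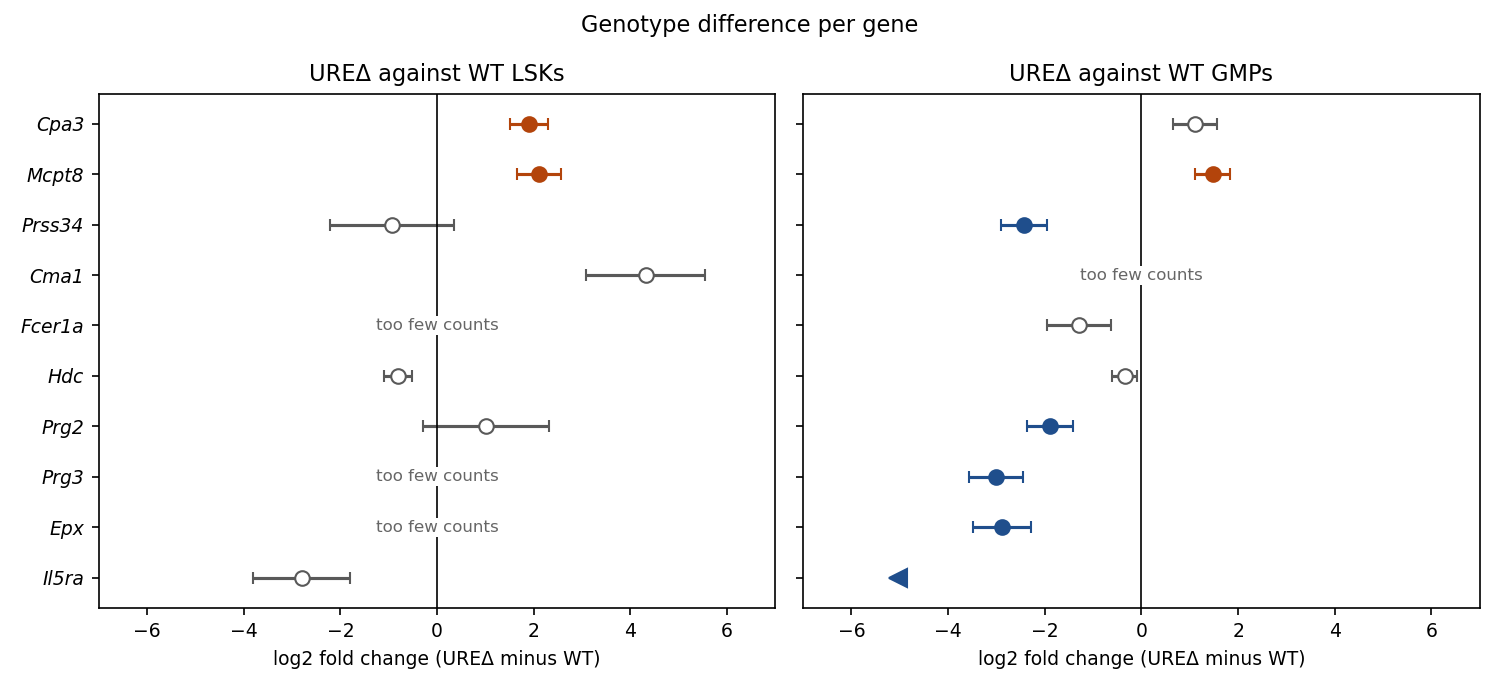
Log2 fold change of UREΔ against WT for each gene in LSKs (left) and GMPs (right), from edgeR, with SE as bars. Filled points passed the test (red higher, blue lower), open points did not, and the arrowhead for *Il5ra* in GMPs marks the bound of at least 32.8-fold lower that a count of 0 allows between group means. *Mcpt8* was higher in both cell types, and *Prg2*, *Prg3*, *Epx*, *Prss34* and *Il5ra* were lower in GMPs.

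The order of the genes in GMPs was changed between the genotypes. Levels were compared between genes as CPM per kb of the longest coding transcript. In WT GMPs, *Prg2* had the highest level per kb (774), followed by *Cpa3* (399), *Hdc* (170), *Prss34* (154), *Mcpt8* (110), *Epx* (50.7), *Prg3* (41.2), *Fcer1a* (4.72), *Il5ra* (1.40) and *Cma1* (0.545). Among these neighbors, the libraries of *Mcpt8* and *Epx* and those of *Prg3* and *Fcer1a* did not overlap in level, and all the others did. In UREΔ GMPs, *Cpa3* (844 CPM per kb) came first, then *Mcpt8* (302), *Prg2* (203), *Hdc* (131), *Prss34* (28.0), *Epx* (6.72), *Prg3* (5.0), *Fcer1a* (1.88) and *Cma1* (0.597), with *Il5ra* at 0. There, *Hdc* stood clear of *Prss34*, and the first 4 genes overlapped from neighbor to neighbor. *Cpa3* was first in LSKs of either genotype, at 16.3 CPM per kb in WT and 61.9 in UREΔ, and in the UREΔ LSKs it stood clear of *Mcpt8* (21.0).

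The summed CPM of *Prg2*, *Prg3* and *Epx* divided by that of *Cpa3* and *Mcpt8* put this shift in a single value per library, given without a test because its genes were picked after their values were known. In the WT GMPs the ratio was 1.27, 1.35, 0.700 and 2.39. In the UREΔ GMPs it was 0.0406, 0.334, 0.128 and 0.128. The summed CPM of the eosinophil granule genes was thus below that of *Cpa3* and *Mcpt8* in every UREΔ GMP library, and above it in 3 of the 4 WT GMP libraries. These sums were not corrected for transcript length, so they do not compare numbers of transcripts between the genes. In LSKs the ratio was 0.363, 0.0688, 0.0296 and 0.174 in WT and 0.0113, 0.0120, 0 and 0.298 in UREΔ, with overlap.

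**Figure D3:**
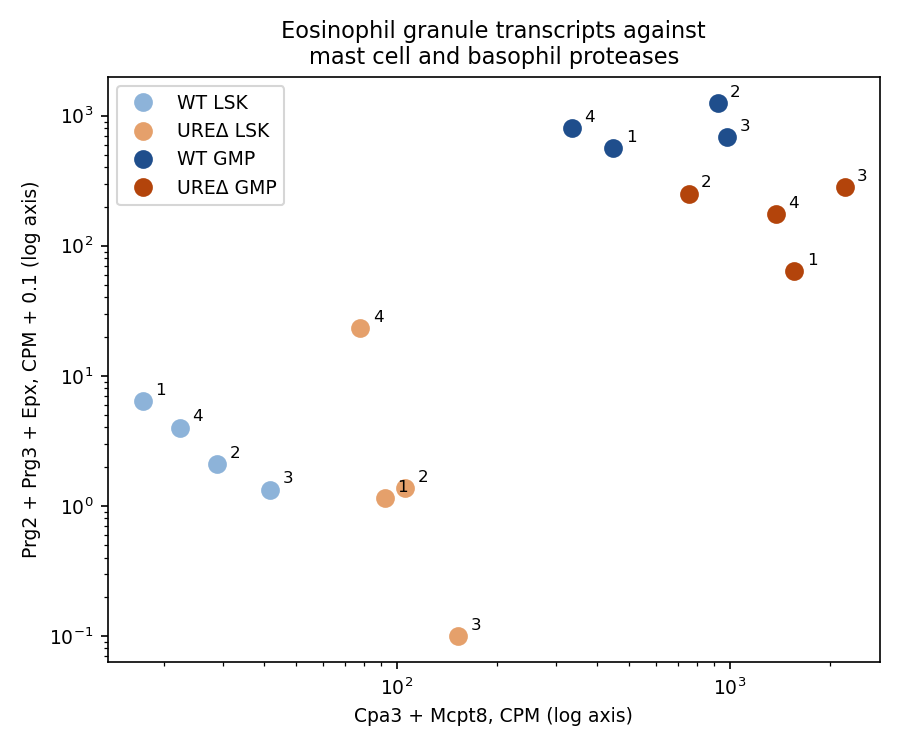
Summed CPM of *Prg2*, *Prg3* and *Epx* (vertical, with 0.1 added, log axis) against summed CPM of *Cpa3* and *Mcpt8* (horizontal, log axis), with 1 point per library and replicate numbers beside the points. UREΔ GMPs lie below the WT GMPs, and UREΔ LSKs lie to the right of WT LSKs, with UREΔ LSK replicate 3 at 0 on the vertical axis before the offset.

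Within UREΔ marrow, 6 of the 9 genes tested rose from LSKs to GMPs and 1 fell, where 21.8% of 14395 genes were called, 9.2% higher and 12.6% lower. The libraries of 7 of the 9 did not overlap, compared with 26.6% of all genes tested. *Cpa3* (3.77 ± 0.43), *Mcpt8* (3.86 ± 0.49), *Hdc* (6.67 ± 0.26) and *Prg2* (4.79 ± 1.41) were higher in UREΔ GMPs on the log2 scale. The other 2 calls, *Prg3* and *Epx*, reached the filter's minimum in no UREΔ LSK library and were tested only because they were high in GMPs. *Prg3* had 0, 2, 0 and 7 counts in the UREΔ LSKs and 25, 148, 132 and 68 in the UREΔ GMPs, and *Epx* had 0, 0, 0 and 4 against 196, 663, 261 and 301. The *Prg2* call (adjusted p = 0.0369, edgeR) was lost in replicates 1 and 4 alone (3.20, 0.0777) and without any of UREΔ GMP replicates 2, 3 and 4 and UREΔ LSK replicates 1 and 2 (adjusted p 0.0646 to 0.0762). *Cma1* fell by 4.81 (SE 1.35, adjusted p = 0.0303, edgeR) but its groups overlapped, since UREΔ LSK replicate 2 lay below UREΔ GMP replicate 3 (exact permutation p = 0.0571). It reached the filter's minimum in all UREΔ LSKs but in 1 UREΔ GMP library, so this count too is a description. That call was lost in replicates 2 and 3 alone (-3.24, 0.288) and without any of UREΔ GMP replicates 1, 2 and 4 and UREΔ LSK replicates 3 and 4 (adjusted p 0.0519 to 0.0879). *Prss34* did not overlap and had a log2 difference of 3.47 ± 1.29 (adjusted p = 0.0856, edgeR). This passed with the replicate block (4.47, 0.0174), with the Y-linked covariate (3.93, 0.0474), in the joint fit (3.51, 0.0254) and without UREΔ LSK replicate 4 (4.89, 0.0462). *Prss34* reached the filter's minimum in all 4 UREΔ GMP but in only 2 UREΔ LSK libraries. It was thus tested because GMPs were high, so these values and its place among the 7 without overlap are a description. *Fcer1a* (0.51 ± 1.06) gave no call, and *Il5ra* was below the filter. The median over the 9 was 3.86, against -0.09 over all genes tested. The WT and UREΔ differences between cell types use separate libraries, and the test of their difference is the interaction term.

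No interaction of genotype and cell type was called among the 10 genes (edgeR, adjusted p under 0.05), where 1.22% of 15935 genes were, 0.866% with a higher and 0.351% with a lower UREΔ to WT ratio in GMPs. At an unadjusted p under 0.05 there were 3, *Il5ra*, *Fcer1a* and *Cma1*, each with a lower UREΔ to WT ratio in GMPs than in LSKs, where 11.6% of all genes tested were under that value. *Fcer1a* had a log2 interaction of -3.37 ± 1.28 (adjusted p = 0.267) and *Cma1* of -4.18 ± 1.66 (adjusted p = 0.303). *Il5ra* (adjusted p = 0.0936) was called with the replicate block (adjusted p = 0.0394) and with DESeq2 (adjusted p = 0.00203), which called 1 of the 10. The fitted interaction of *Il5ra* rests on a group at 0, so its size is not given. For *Cpa3* (-0.82 ± 0.62) and *Mcpt8* (-0.66 ± 0.59) the difference between cell types was within 2 SE. Medians were -1.60 over the 10 genes and 0.00 over all genes tested.

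Genes of the same lineages from wider lists moved in both directions. Of 24 further mast cell and basophil genes, 14 were tested in LSKs, where 2 rose and 1 fell, and 12 in GMPs, where 1 rose and 2 fell. The calls over all genes tested were 6.14% in LSKs and 8.3% in GMPs. *Ms4a2*, the β chain of FcεRI, was at 61.5 to 93.4 CPM in WT GMPs and 1.40 to 18.9 CPM in UREΔ GMPs and fell by 2.92 (SE 0.63, adjusted p = 0.0206, edgeR). *Cd200r3*, a receptor of basophils and mast cells, was at 1.84 to 3.48 CPM in WT GMPs and 0.110 to 0.603 CPM in UREΔ GMPs (log2 difference -2.94, SE 0.55). It reached the filter's minimum in all 4 WT but in only 1 UREΔ GMP library. It was thus tested because WT was high, and its call is a description, also within the count of genes that fell. *Fcer1g*, the signaling γ chain that FcεRI shares with other Fc receptors, fell in LSKs by 1.63 (SE 0.35) and differed by -0.30 ± 0.29 in GMPs (adjusted p = 0.657, edgeR). *Cyp11a1*, the enzyme that opens steroid synthesis and is made by some mast cells, rose in both cell types, from 2.48 to 4.57 CPM in WT LSKs to 20.9 to 49.6 CPM in UREΔ LSKs (3.25 ± 0.33) and from 2.52 to 7.63 to 18.1 to 39.2 CPM in GMPs (2.47 ± 0.38). *Itgb7*, an integrin of mast cell progenitors and other leukocytes, rose in LSKs by 0.90 ± 0.21. Of the 14 tested in LSKs, 6 did not overlap between the genotypes, where 12.6% of all genes tested did not. The 3 of these that were not called are named after their values were seen. The tryptase gene *Tpsb2* was at 2.08 to 46.0 CPM in UREΔ and 0 to 2.02 CPM in WT LSKs (log2 difference 4.42 ± 1.31, adjusted p = 0.0951, edgeR). *Ms4a2* was at 0 to 0.736 CPM in UREΔ and 1.24 to 2.52 CPM in WT LSKs (-2.74 ± 0.85, adjusted p = 0.113, edgeR), and the cytokine gene *Il4* at 0.0857 to 0.669 and 0.681 to 2.79 CPM (-2.62 ± 0.72, adjusted p = 0.0712, edgeR). *Ms4a2* and *Il4* each reached the filter's minimum in all 4 WT but in only 1 UREΔ LSK library. *Tpsb2* reached it in all 4 UREΔ but in 2 WT LSK libraries. All 3 were thus tested because 1 genotype was high, and their values are a description. The median log2 difference of the tested genes was -0.04 in LSKs and -0.01 in GMPs.

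Further mast cell tryptases, chymases and Mrgprb receptors were at or near 0 in the GMPs. Of the 24 list genes, 7 had no count in any UREΔ GMP library (*Tpsab1*, *Tpsg1*, *Tpsb2*, *Mrgprb2*, *Mcpt4*, *Mrgprb1* and *Mcpt9*) and 9 had none in any WT GMP library. In LSKs, 4 had none in UREΔ and 2 in WT. The list's summed level was 569 to 859 CPM in WT GMPs and 695 to 1006 CPM in UREΔ GMPs, and 622 to 946 and 681 to 1080 CPM in the LSKs.

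Of 10 further eosinophil genes, 6 were tested in LSKs and 7 in GMPs, and 1 fell in each, where 3.76% of all genes tested fell in LSKs and 3.63% in GMPs. *Ear1*, an eosinophil ribonuclease, was at 0.596 to 5.66 CPM in WT GMPs and 0 to 0.301 CPM in UREΔ GMPs (adjusted p = 0.0408, edgeR). *Ear1* has close paralogs, so its reads may be shared among them. *Alox15*, a lipoxygenase, was at 0.488 to 0.721 CPM in WT LSKs and 0 to 0.129 CPM in UREΔ LSKs (adjusted p = 0.0348, edgeR). Both genes reached the filter's minimum in every WT library and in no UREΔ library, so they were tested only where WT was high and their calls are descriptions. No gene of the list rose in either cell type. The median log2 difference was -1.37 in LSKs and -1.14 in GMPs, against 0.00 and 0.01 over all genes tested. In GMPs *Ear2* and *Ear6* reached the filter's minimum in all 4 WT but in only 2 UREΔ libraries, so the GMP median is a description. The list's summed level overlapped between the genotypes. It was 79.2 to 148 CPM in WT GMPs and 75.6 to 129 CPM in UREΔ GMPs, and 33.6 to 77.3 and 25.8 to 50.8 CPM in the LSKs.

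Among 8 regulators of these lineages, *Trib1*, a pseudokinase that directs C/EBPα to degradation, was the only call in either cell type (6.14% of all genes tested were called in LSKs and 8.3% in GMPs). It rose in LSKs, from 1.91 to 4.88 CPM in WT to 14.9 to 25.5 CPM in UREΔ (2.47 ± 0.34), and in GMPs, from 0.193 to 1.29 to 5.28 to 6.74 CPM (3.01 ± 0.49). *Gata1* (-0.38 ± 0.48 in LSKs, 0.13 ± 0.45 in GMPs) and *Gata2* (-0.06 ± 0.68 and -0.01 ± 0.60) overlapped between genotypes, and *Gata2* spread from 20.6 to 168 CPM within the UREΔ LSKs. *Mitf*, a factor of mast cells that is named after its values were seen, was at 3.22 to 8.69 CPM in WT and 0.917 to 2.83 CPM in UREΔ LSKs, without overlap and without a call (-1.82 ± 0.48, adjusted p = 0.0600, edgeR), and differed by -1.22 ± 0.56 in GMPs (adjusted p = 0.266). *Cebpa* differed by -1.44 ± 0.65 in LSKs (adjusted p = 0.336, edgeR) and 0.28 ± 0.31 in GMPs, and *Cebpe*, a factor of late granulocyte maturation, by 1.03 ± 0.40 (adjusted p = 0.222) and 0.69 ± 0.27 (adjusted p = 0.179).

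**Figure D4:**
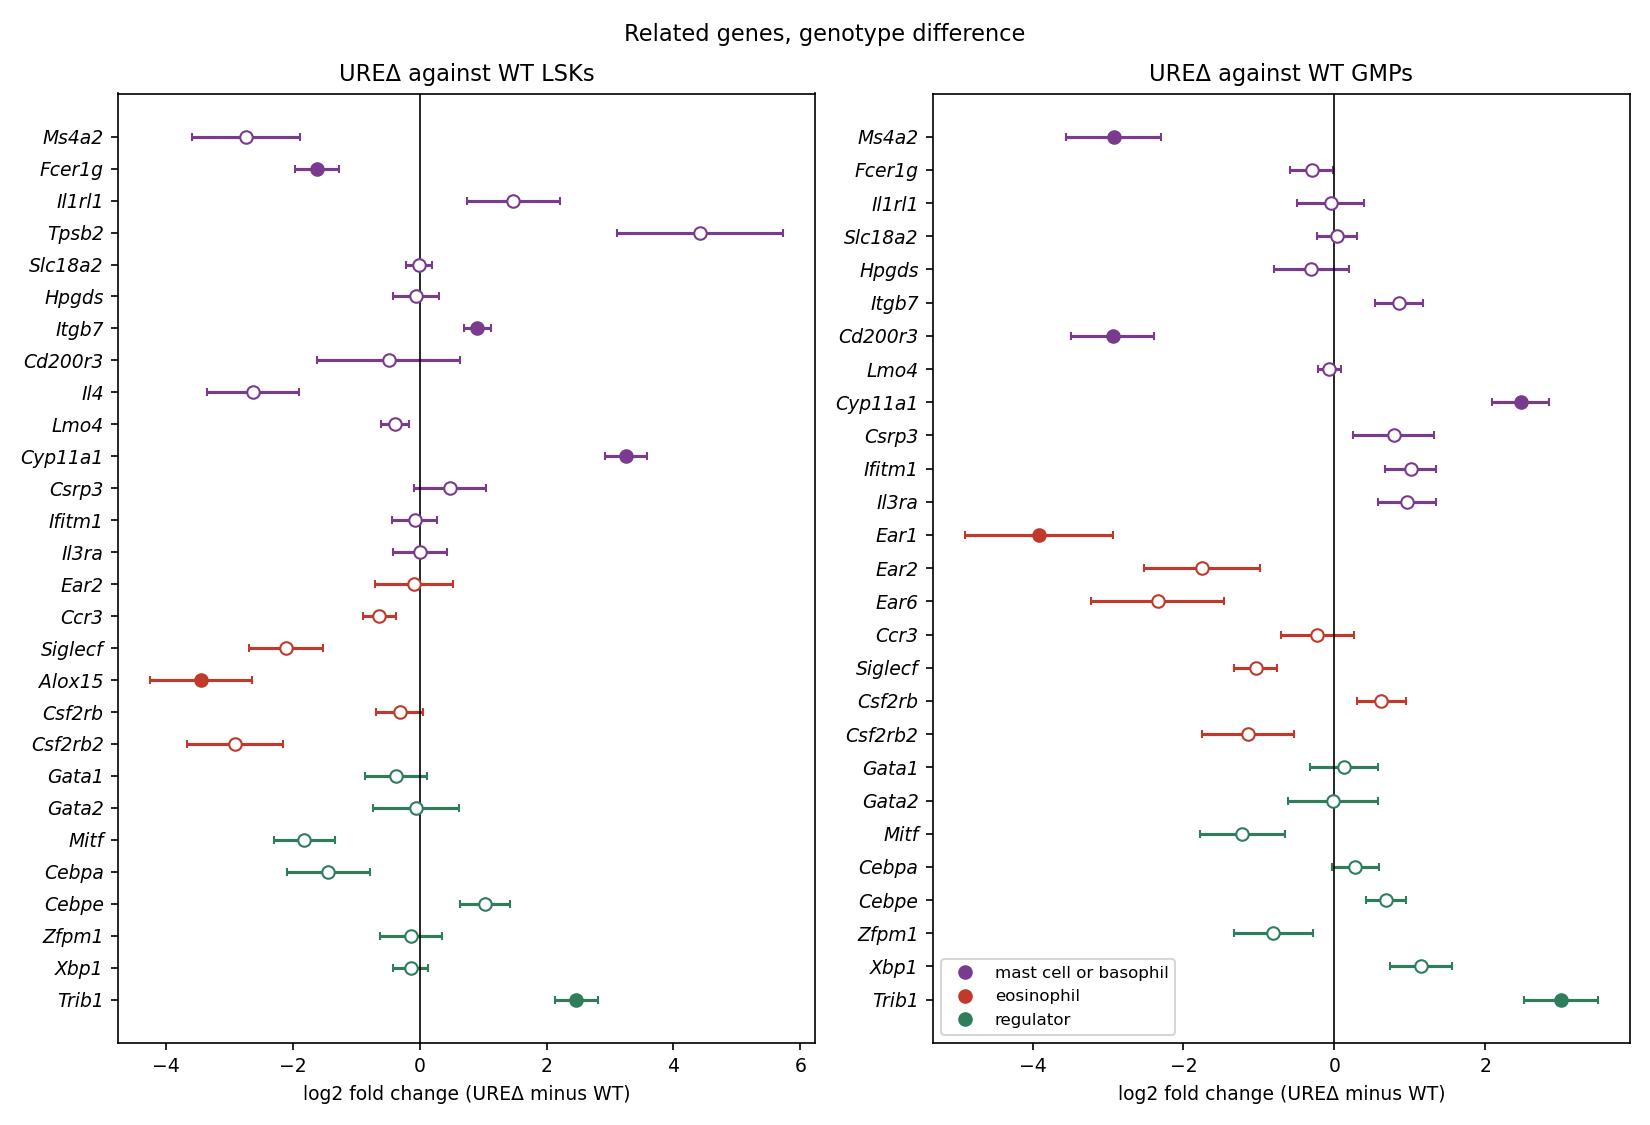
Log2 fold change of UREΔ against WT, with SE as bars, for the further mast cell and basophil genes, eosinophil genes and regulators that passed the filter in LSKs (left) and GMPs (right). Filled points passed the test. *Cyp11a1* and *Trib1* were higher in both cell types, *Ms4a2*, *Cd200r3* and *Ear1* were lower in GMPs, and *Fcer1g* and *Alox15* were lower in LSKs. Of these, *Cd200r3*, *Ear1* and *Alox15* were tested because WT was high, so their points are descriptions.

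Markers of other lineages differed between the genotypes in some sets and overlapped in others. Of all genes tested, 3.76% were called lower and 2.38% higher in LSKs. In GMPs the shares were 3.63% lower and 4.67% higher. The 6 monocyte markers summed to 1288 to 2023 CPM in WT GMPs and 81.8 to 673 CPM in UREΔ GMPs, with 4 of 6 called lower, and to 57.3 to 116 and 10.6 to 21.1 CPM in WT and UREΔ LSKs, again with 4 of 6 called lower. The 9 neutrophil markers summed to 54147 to 72416 CPM in WT GMPs and 72500 to 153404 CPM in UREΔ GMPs, with 1 of 9 called higher. In LSKs their sums overlapped (1059 to 1687 CPM in WT, 1016 to 1854 CPM in UREΔ), with *Elane* (1.15 ± 0.28) and *Ngp* (2.37 ± 0.41) called higher and *Prtn3* (-2.48 ± 0.34) called lower. The 5 megakaryocyte markers summed to 379 to 697 CPM in WT and 553 to 920 CPM in UREΔ LSKs, where *Itga2b* (1.88 ± 0.41) was the only call among the 4 tested, and to 143 to 293 and 92.9 to 350 CPM in the GMPs, with no call. The 6 erythroid markers overlapped between the genotypes in GMPs (138 to 439 against 50.4 to 454 CPM) and in LSKs (42.3 to 117 against 17.0 to 66.9 CPM), where *Hbb-bt* was called lower (-4.54 ± 0.74). B cell markers were at most 6.69 CPM in any library. The 6 stem cell markers summed to 153 to 313 CPM in WT and 71.5 to 93.9 CPM in UREΔ GMPs. In LSKs their sums overlapped (941 to 1997 CPM in WT, 937 to 1184 CPM in UREΔ). In each cell type 1 of the 6 was called lower. The 5 T and NK cell markers summed to 54.9 to 114 CPM in WT and 41.5 to 53.2 CPM in UREΔ LSKs. In GMPs they summed to 8.13 to 13.9 and 8.88 to 28.7 CPM, without a call in either cell type. The part of these shifts in the levels of the 10 genes was not tested.

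Over all 16 libraries and 15935 genes, the genes nearest in pattern were found by the root mean square difference of log2 CPM, each gene centered on its own mean. *Hdc* was nearest to *Mpo* (0.57) and *Anxa3* (0.79), *Cpa3* to *Hsd17b1* (0.65) and *Flt1* (0.72), and *Mcpt8* to *Papss2* (0.71) and *Serpine2* (0.78). *Serpine2* stood at 6.02, 29.7, 100.4 and 576 CPM and *Mcpt8* at 3.96, 17.6, 92.1 and 253 CPM on average in WT LSKs, UREΔ LSKs, WT GMPs and UREΔ GMPs. *Il5ra* was nearest to *Cnn3* (0.93) and *Lpcat2* (1.03), *Fcer1a* to *Il1rl1* (0.96) and *Atp8b1* (1.09), and *Prss34* to *Ms4a2* (1.29) and *Prss16* (1.37). *Prg3* was nearest to *Ms4a3* and *Igsf6* (1.15 each), *Prg2* to *Prg3* (1.40) and *Epx* (1.49), and *Epx* to *Prg3* (1.35) and *Hdc* (1.45). *Cma1* was nearest to *Gm10419* (1.49) and *Gm37219* (1.5).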

How the data were processed

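RNA was measured in 16 libraries, made by the authors from up to 10 ng of RNA with an unstranded low-input kit without molecular identifiers and sequenced paired-end. The deposited values are estimated counts per gene, which the authors obtained with salmon and tximport on GRCm38 and deposited as whole numbers without normalization. The annotation release is not given in the sources used here. Groups and replicate numbers came from the sample labels. Nothing in the table was left out.

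Each comparison was fitted over all genes with edgeR 4.0.16 (limma 3.58.1, R 4.3.3). TMM normalization, filterByExpr and the quasi-likelihood test were followed by Benjamini-Hochberg adjustment, and calls were made below an adjusted p of 0.05 with more than a 1.5-fold change (for the interaction, by adjusted p alone). SE was computed as the absolute log2 fold change over the root of the F statistic, and 95% intervals are 1.96 SE on either side. CPM used TMM library sizes over all 16 libraries. Single genes were also compared by two-sided exact permutation of log2 CPM (prior count 2). The smallest p they can give is 0.0286. The procedure was tested on simulated data. Coordinates, transcript lengths and exon overlaps came from GENCODE M21 (GRCm38), and promoters from RefSeq (GRCm38.p6). Plots were drawn with matplotlib 3.10.9.

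Same-numbered libraries deviated together in every comparison (correlation of deviations from the group means 0.30 to 0.61 in LSKs, 0.28 to 0.62 in GMPs, 0.47 to 0.77 between cell types in WT and 0.44 to 0.58 in UREΔ), so the numbers were taken to pair the samples, and a fit with the replicate block was an alternative. In the comparisons of cell types, the labels do not say that LSKs and GMPs of the same number came from the same mouse. The other alternatives were RLE size factors, DESeq2 1.42.0, no low-count filter, no fold change minimum, a joint fit of all libraries, a Y-linked covariate, replicates 1 and 4 or 2 and 3 alone, leaving out each library, and a prior count of 0.5. The 10 genes, the gene lists and these tests were chosen with earlier results of these data known. Genes named were the 10, *Spi1*, called genes of the mast cell and basophil, eosinophil and regulator lists, *Gata1*, *Gata2*, *Cebpa*, *Cebpe*, and the 2 nearest genes in pattern of each of the 10. *Elane*, *Ngp*, *Prtn3*, *Itga2b* and *Hbb-bt* were named because they were called in LSKs, and so after their values were seen. Any further gene is marked as chosen after its values were seen or is listed only as having no counts. Statements on depth and on counts of 0 (a limit of 3 counts) cover counting error only.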

Additional observations from a re-analysis of the deposited data

Results flagged for a closer look

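Among 39 groups of 4 libraries checked over the 10 genes, 4 held a library far from the other 3 by Dixon's test. Chance gives about 1 in 20 for normally distributed values. CPM near 0 are not so distributed, so the number flagged cannot be set against that share. *Fcer1a* in UREΔ GMP replicate 3 stood at 4.67 CPM, against 0.703 to 1.37 CPM in the other UREΔ GMPs. *Fcer1a* in WT LSK replicate 1 stood at 0.130 CPM (4 counts), against 0.358 to 0.403 CPM in the other WT LSKs. *Prg2* in UREΔ LSK replicate 4 stood at 22.7 CPM, against 0 to 1.20 CPM in the other UREΔ LSKs. *Epx* in the same library stood at 0.171 CPM (4 counts), with 0 counts in the other UREΔ LSKs, where any count would have been flagged. That library also had the highest *Cma1*, *Prss34*, *Prg3*, *Fcer1a* and *Il5ra* levels of the UREΔ LSKs.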

How the results depend on the processing

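Most single-gene values kept their direction and their side of the threshold, 758 of the 824 recomputed, with 44 that lost a call, 13 that gained a call and 9 that changed sign. The number of the 10 genes called between genotypes in LSKs was 2, and became 4 with DESeq2, 0 with the Y-linked covariate, 1 in replicates 1 and 4, 1 in replicates 2 and 3, and 0 to 2 on leaving out each library. In GMPs it was 6, and became 3 in replicates 2 and 3 alone and 3 to 7 on leaving out each library, with 3 without UREΔ GMP replicate 4. The interaction had 0 calls, 1 with DESeq2 and 1 with the replicate block, both *Il5ra*, and 0 to 0 on leaving out each library. Calls between cell types stayed at 9 in WT on leaving out each library and ran from 5 to 7 in UREΔ. The numbers of the 10 genes whose libraries did not overlap did not change with a prior count of 0.5. Apart from *Il5ra* and *Prss34* (above), the replicate block changed no call. RLE size factors moved the median of all genes by at most 0.07 on the log2 scale.

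Sign changes concerned results that had passed no test. *Prg2* between genotypes in LSKs (1.01 on the log2 scale) was -1.02 with the replicate block, -0.25 with the Y-linked covariate, -1.41 in replicates 2 and 3, and -2.02 to 1.56 on leaving out each library. *Fcer1a* between UREΔ cell types (0.51) was -0.34 in replicates 1 and 4 and -0.49 to 1.17 on leaving out each library. The interaction of *Mcpt8* (-0.66) was 0.26 in replicates 1 and 4. Without UREΔ LSK replicate 4 the interaction of *Prg2* (-2.92) was 0.085 and that of *Epx* (-1.13) was 1.94, the ranges over libraries being -3.46 to 0.085 and -1.77 to 1.94. The cause was not tested.

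Over all genes, calls in LSKs (930) became 1631 with DESeq2, 1433 with the block, 505 with the Y-linked covariate and 386 in replicates 2 and 3. In GMPs (1148) they became 1995, 2260, 619 and 108. Between cell types, replicates 2 and 3 alone gave 2507 calls in WT (4037) and 810 in UREΔ (3133). The interaction (194) gave 672 with DESeq2, 1047 with the block, 2 in replicates 2 and 3, and 84 to 283 on leaving out each library. Leaving out each library gave 565 to 961 calls in LSKs and 715 to 1176 in GMPs, with 565 and 606 without WT LSK replicates 2 and 4 and 715 without UREΔ GMP replicate 4. Between cell types it gave 3216 to 4257 in WT and 2193 to 3369 in UREΔ. Few counts limit *Il5ra* in UREΔ cells, *Cma1* in GMPs and WT LSKs, *Fcer1a* in WT LSKs, and *Prg3* and *Epx* in LSKs.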
